A study of Mus musculus with 18 samples.

Results

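The galectin genes of the retina are described here in microglia and in the remaining retinal cells of mice with inherited photoreceptor degeneration. The 6 members are Lgals1, Lgals3, Lgals4, Lgals8 and Lgals9, which encode galectins, and Lgals3bp, which encodes a glycoprotein that binds galectin-3. They were chosen by symbol, as 6 rows of a table of 54532 genes, and all 6 identifiers were matched. The mice were of the rd1 strain on the FVB background, aged 30 days after birth, and every group carries the rd1 mutation of the rod phosphodiesterase gene Pde6b. GFP retinas had received subretinal AAV8-GFP, an adeno-associated virus for green fluorescent protein, and TGFB1 retinas had received AAV8-GFP together with AAV8-TGFB1, a virus for the cytokine transforming growth factor beta 1. The sources used here do not give the promoters in these viruses, the cells they entered or whether animals were pooled. Retinas were dissociated with papain, and antibody-stained cells were sorted into microglia, with 7 libraries for each treatment, and non-microglia, with 2 for each. No group without a virus and no group without the rd1 mutation is among these 18 libraries.

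Galectins are small lectins that bind galactose-containing sugar chains, above all N-acetyllactosamine on N-glycans, and work inside the cell as well as after release by a route that bypasses the classical secretory pathway. Galectin-1 is a dimer of a single type of binding domain, galectin-3 joins its binding domain to a flexible tail that lets it form lattices, and galectins 4, 8 and 9 carry a pair of different binding domains in a single chain. In the degenerating retina and brain galectin-3 is known as a product of phagocytic microglia and a ligand of the receptors TREM2 and MERTK, galectin-8 as a sensor of ruptured endosomes, galectin-9 as a ligand of the receptor TIM-3, and galectin-4 as a lectin of gut epithelium.

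The sequence before the annotated start site is shown for 3 members on whose levels the results turn: Lgals3, which differed between treatments in microglia, Lgals3bp, which lay closest to the threshold, and Lgals9, which differed most between the cell fractions. The sequences are the 250 bases upstream of the RefSeq start sites in GRCm38.p6, read 5′ to 3′ on the strand of the gene, at chr14:47373610-47373859 (plus strand) for Lgals3, chr11:118401960-118402209 (minus strand) for Lgals3bp and chr11:78984925-78985174 (minus strand) for Lgals9. Capitals mark the SMAD-type motif CAGAC in Lgals3 and the interferon response motif GAAANNGAAA in Lgals9, each on either strand.
Lgals3: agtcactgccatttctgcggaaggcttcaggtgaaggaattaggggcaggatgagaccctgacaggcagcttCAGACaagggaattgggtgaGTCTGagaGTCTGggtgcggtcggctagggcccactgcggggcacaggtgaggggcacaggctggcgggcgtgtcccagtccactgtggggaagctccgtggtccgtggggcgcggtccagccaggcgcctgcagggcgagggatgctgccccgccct
Lgals3bp: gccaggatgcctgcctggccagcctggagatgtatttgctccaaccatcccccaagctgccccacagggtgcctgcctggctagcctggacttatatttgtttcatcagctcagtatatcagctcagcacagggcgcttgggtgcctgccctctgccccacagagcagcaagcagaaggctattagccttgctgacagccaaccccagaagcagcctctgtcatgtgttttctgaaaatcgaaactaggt
Lgals9: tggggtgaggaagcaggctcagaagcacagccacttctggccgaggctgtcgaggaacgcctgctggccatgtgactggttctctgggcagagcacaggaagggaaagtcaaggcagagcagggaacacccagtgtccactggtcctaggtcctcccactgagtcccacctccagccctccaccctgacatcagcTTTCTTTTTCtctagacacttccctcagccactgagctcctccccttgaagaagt

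Windows of 300 bases, from 250 before to 50 after the start, were in the RefSeq table for 5 of the 6 members, all but Lgals1. The Lgals3 window held 3 matches to CAGAC, at -178 to -174, -158 to -154 and -150 to -146 from the start. At least 1 such match was found in 49.6% of all 32851 windows, and at least 3 in 3.90%. Lgals4 held 1 match, and Lgals3bp, Lgals8 and Lgals9 held none. GAAANNGAAA occurred in the Lgals9 window at -55 to -46 and at 16 to 25, both on the strand opposite to the gene, whereas 3.44% of all windows held it at least once and 0.225% at least 2 times. Neither AGGAAGT, a motif of the myeloid factor PU.1 (9.35% of windows), nor TGANTCA, the motif of AP-1 (7.81%), was found in the 5 windows. No motif letters overlapped another motif there. The Lgals3 window was 67.0% G or C with 18 CpG dinucleotides, against medians of 52.7% and 7 over all windows, while Lgals3bp held 3 CpG and Lgals9 held 4. The Lgals3 and Lgals8 windows lie inside their GENCODE genes, whose 5′ ends are annotated farther upstream. The GENCODE 5′ ends of Lgals3bp, at 118402092, and Lgals9, at 78984946, fall within the upstream bases shown. Part of those bases therefore lies inside the GENCODE gene. Matches describe letters in these windows and not binding.

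Total counts per library ran from 1582451 to 3064027. Levels are given as CPM, counts per 1000000 of a library total scaled by TMM, and a floor of 3 counts corresponds to 0.881 to 2.12 CPM. Tgfb1, the mouse gene of the cytokine, had 462 and 402 counts in the TGFB1 non-microglia, 0 and 0 in the GFP non-microglia, and 17 to 59 in the microglia. The 10 microglia markers summed to 39527 to 48954 CPM in the 14 microglia libraries and to 57.2 to 69.4 in the 4 non-microglia libraries, where Fcrls was at 0 throughout. Xist RNA was above 100 counts in replicates 2, 7 and 8 of both microglia treatments and at 0 to 2 counts in all other libraries, the non-microglia included. A group of 3 rRNA repeat genes took 8.86% to 18.3% of each library, and the 3 lowest of the 18 shares belong to TGFB1 microglia replicates 2, 7 and 8.

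Microglia and non-microglia differed in their galectin levels. In GFP retinas Lgals9, Lgals3bp, Lgals1 and Lgals8 were higher in microglia, and Lgals4 and Lgals3 were higher in non-microglia. All 6 passed the edgeR test at an adjusted p under 0.05, where 64.2% of the 15321 genes tested did (29.9% higher in microglia, 34.2% lower), so that passing was common. In TGFB1 retinas the same 5 genes other than Lgals3 passed in the same directions (65.2% of all genes, 30.8% higher and 34.4% lower), and Lgals3 did not pass. Fewer cells of a type and less RNA per cell cannot be told apart in sorted pools such as these.

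Lgals9, the galectin-9 gene (GRCm38, as for the other genes, chromosome 11, 78962974 to 78984946, ENSMUSG00000001123), was the most unequally divided member. Its level in GFP microglia had a lowest value of 346, a median of 464 and a highest value of 518 CPM, against 7.05 and 6.74 CPM in GFP non-microglia. All 7 microglia libraries were far above both others, and the 65.7-fold difference (log2 fold change 6.04, SE 0.27) had an edgeR adjusted p of 1.98e-14. In TGFB1 retinas it had a lowest value of 431, a median of 518 and a highest of 618 CPM in microglia and 3.59 and 10.7 CPM in non-microglia, a 73.2-fold difference. The non-microglia values rest on 11 to 33 counts each. The GFP non-microglia level was 1.51% of the microglia level, while the summed microglia markers there stood at 0.153%.

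Lgals3bp (chromosome 11, 118392751 to 118402092, ENSMUSG00000033880), whose product belongs to the scavenger receptor cysteine-rich family, followed at 217 to 264 CPM in GFP microglia (median 226) and 43.8 and 43.4 CPM in GFP non-microglia. The difference was 5.31-fold (edgeR adjusted p = 2.18e-12, log2 fold change 2.41 with SE 0.16). Lgals1 (chromosome 15, 78926725 to 78930465, ENSMUSG00000068220) had 19.4 to 44.5 CPM in GFP microglia (median 36.6) and 11.2 and 7.07 CPM in GFP non-microglia. It was 3.68-fold higher in microglia (95% interval 2.42 to 5.61). Lgals8 (chromosome 13, 12439415 to 12464944, ENSMUSG00000057554) was the most evenly divided of the 4, at 65.8 to 92.4 CPM in microglia (median 76.0) and 42.9 and 40.1 CPM in non-microglia, or 1.89-fold higher (1.56 to 2.28). Of its 3688 exon bases 4.20% are shared with Heatr1, and the other 5 members share none with any gene.

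Lgals4 (chromosome 7, 28833854 to 28841708, ENSMUSG00000053964) was the member with the largest excess in the other retinal cells. GFP non-microglia had 41.1 and 54.2 CPM, or 140 and 161 counts. GFP microglia had 1.77 to 8.87 CPM (median 6.26), every library far below the non-microglia, and the difference was 7.46-fold (edgeR adjusted p = 8.33e-09, log2 fold change -2.90 with SE 0.30). Replicate 2 of each microglia treatment had 3 counts, the floor, and the other microglia libraries 5 to 24. The microglia level was 12.98% of the non-microglia level in GFP retinas. In the same libraries the summed markers stood at 1.47% of their non-microglia level for rods, 3.51% for Mueller glia, 4.22% for bipolar cells and 8.96% for amacrine cells. Sums for cones stood at 18.1%, for pigment epithelium at 27.6% and for ganglion cells at 258%, but markers within a list differed. Of 6 cone markers tested 4 were lower and 1 was higher in microglia, with a median log2 fold change of -6.00. Of 4 for pigment epithelium 3 were lower and 1 higher (median -2.87), and of 4 for ganglion cells 3 were higher and 0 lower (median 1.63). The part of these cells in the Lgals4 counts of microglia was not tested.

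Lgals3 (chromosome 14, 47367751 to 47386160, ENSMUSG00000050335) was lower in microglia in GFP retinas, whereas in TGFB1 retinas no difference passed the test. All 7 GFP microglia libraries, at 10.6 to 23.7 CPM, lay below both GFP non-microglia libraries, at 29.7 and 25.3 CPM (edgeR adjusted p = 0.0204, log2 fold change -0.79 with SE 0.29). In TGFB1 retinas 2 of 7 microglia libraries lay below both non-microglia libraries and 4 above both, and the difference was 0.16 on the log2 scale (SE 0.29, 95% interval -0.43 to 0.75, edgeR adjusted p = 0.633). The change between these 2 comparisons, 0.95 on the log2 scale, did not pass its own test (edgeR adjusted p = 0.99995). The call in GFP retinas rests on the 2 non-microglia libraries: without replicate 1 the adjusted p was 0.192 and without replicate 2 it was 0.0561. Its sign was negative in all 9 fits that left out 1 library of GFP retinas.

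**Figure D1:**
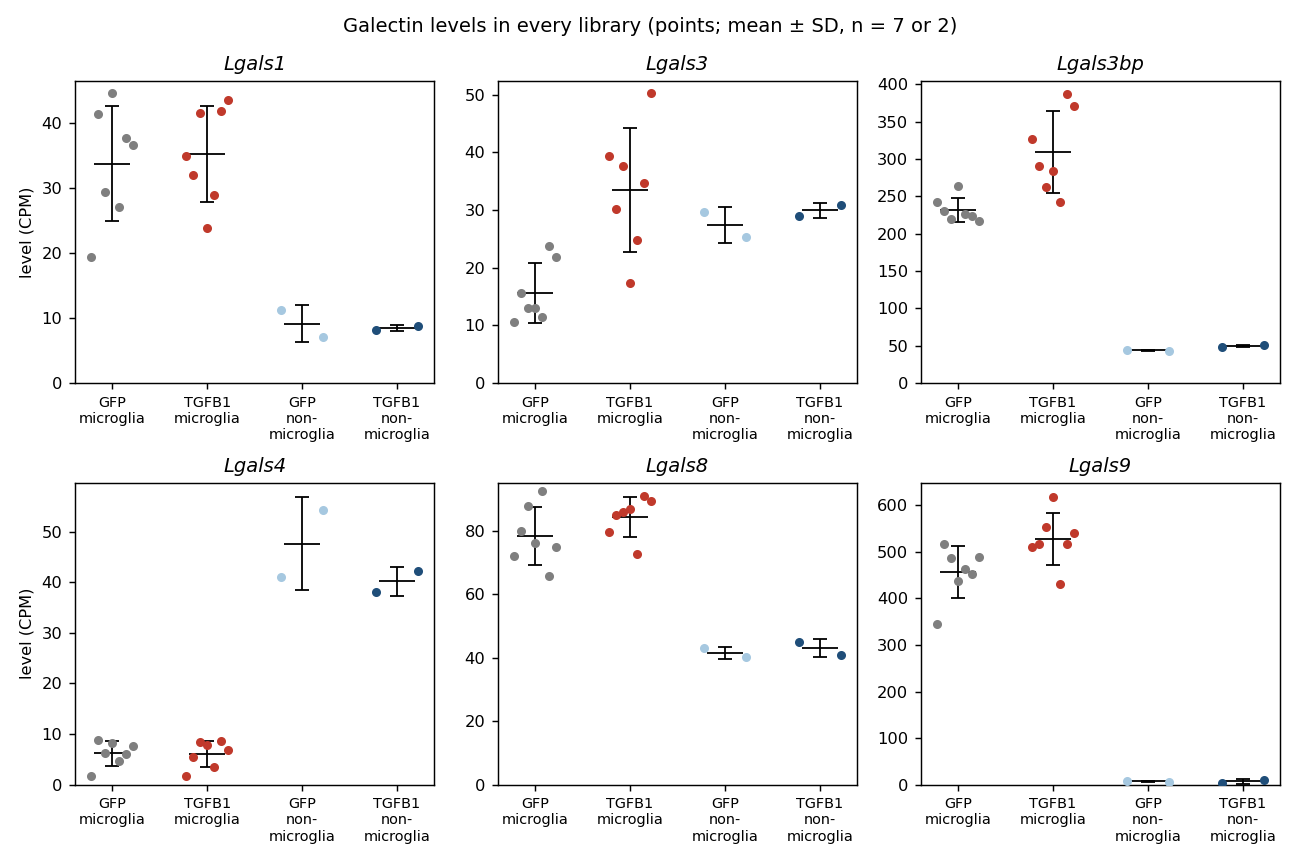
Levels of the 6 genes in CPM (vertical axes, each starting at 0) in every library of the 4 groups on the horizontal axis; points are libraries, and bars give the mean ± SD of 7 microglia or 2 non-microglia libraries. Lgals9, Lgals3bp, Lgals1 and Lgals8 are higher in microglia, Lgals4 is higher in non-microglia, and the GFP microglia are the lowest group for Lgals3.

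Levels of different genes were compared after division by exon length, as CPM per kb. In GFP microglia the order was Lgals9 (214), Lgals3bp (81.5), Lgals1 (37.4), Lgals8 (21.2), Lgals3 (8.40) and Lgals4 (2.67 CPM per kb). Lgals9 made up 58.6% of the sum of the 6 and Lgals3 2.30%. Each gene was above the next in all 7 libraries, and among neighbours only the ranges of Lgals1 and Lgals8 overlapped. TGFB1 microglia had the same order, with Lgals3 at 18 CPM per kb and 4.11% of the sum. Lgals8 was there above Lgals3 in 6 of 7 libraries, and their ranges overlapped.

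In non-microglia the levels per kb lay closer together and the order was less settled. GFP non-microglia had Lgals4 at 20.6, Lgals3bp at 15.3, Lgals3 at 14.8, Lgals8 at 11.2, Lgals1 at 10.1 and Lgals9 at 3.23 CPM per kb. The ranges of Lgals3bp and Lgals3 overlapped, as did those of Lgals8 and Lgals1, with each gene ahead in 1 of 2 libraries. In TGFB1 non-microglia Lgals3bp and Lgals4 stood at 17.38 and 17.36 CPM per kb, each ahead in 1 library, and Lgals3 at 16.1. Lgals9 was the lowest of the 6 in both treatments. Lgals3 had rank 5 of 6 in both microglia groups and rank 3 in both non-microglia groups.

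**Figure D2:**
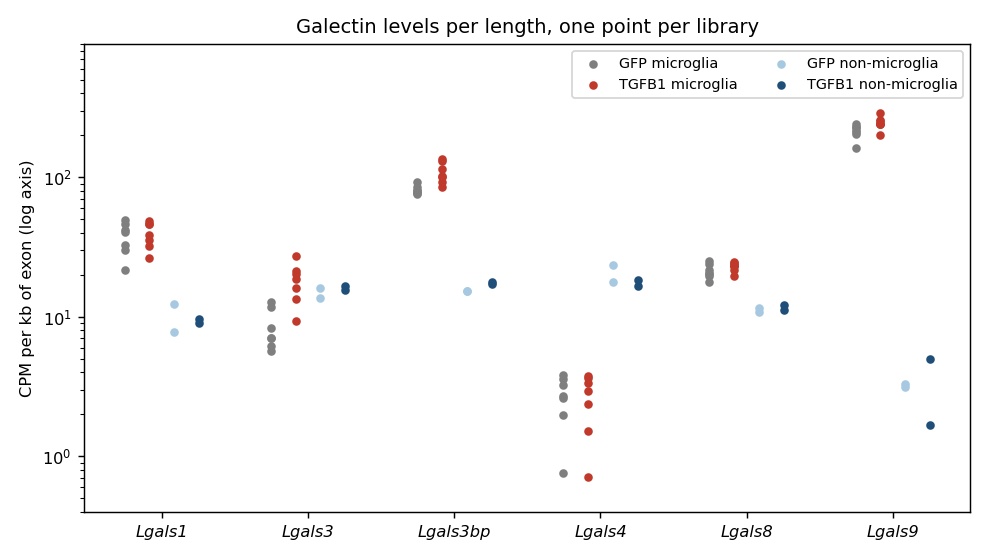
Levels in CPM per kb of exon (vertical log axis) of the 6 genes (horizontal axis), with a point for each library coloured by group. In microglia the genes spread from Lgals4 at means of 2.67 and 2.61 CPM per kb to Lgals9 at 214 and 247, while in non-microglia all but Lgals9 lie near each other.

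The comparison of TGFB1 with GFP within microglia asks what the cytokine virus does to these genes in the cells that were sorted for study. Lgals3 rose, the only 1 of the 6 to pass the edgeR test at an adjusted p under 0.05, where 0.31% of the 10970 genes tested passed (0.237% higher and 0.0729% lower). Lgals3bp missed the threshold by a narrow margin, and Lgals9, Lgals8, Lgals1 and Lgals4 did not pass. Of the 6 log2 fold changes 5 were above 0, with a median of 0.15 against 0.00 over all genes tested, and 3 had an unadjusted p under 0.05, as had 6.65% of all genes.

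Lgals3 had 10.6, 15.5, 13.01, 13.1, 11.5, 23.7 and 21.9 CPM in GFP microglia replicates 2 to 8 and 39.3, 30.1, 37.6, 17.4, 24.7, 34.7 and 50.3 CPM in TGFB1 microglia replicates 2 to 8. Of the TGFB1 libraries 6 of 7 lay above the highest GFP library, and replicate 5 was the exception. The group means were 15.6 ± 5.17 and 33.4 ± 10.7 CPM (SD, n = 7 each), a 2.10-fold rise (95% interval 1.54 to 2.86; edgeR adjusted p = 0.0256, log2 fold change 1.07 with SE 0.22). Lgals3 had rank 23 among all genes by p. These levels rest on 18 to 63 counts per GFP library and 35 to 103 per TGFB1 library. The size of the rise was stable, at 0.95 to 1.21 on the log2 scale with any 1 library left out, but the call was not. It was lost in 10 of these 14 fits (edgeR adjusted p from 0.0522 to 0.0871) and kept only without TGFB1 replicate 5 or 6 or GFP replicate 7 or 8.

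Lgals3bp had 242, 231, 220, 264, 226, 224 and 217 CPM in GFP microglia replicates 2 to 8 and 327, 290, 262, 284, 242, 387 and 371 CPM in TGFB1 microglia replicates 2 to 8. Of the TGFB1 libraries 5 of 7 lay above the highest GFP library, and the spread was wider under TGFB1. The means were 232 ± 16.4 and 309 ± 54.7 CPM (SD, n = 7 each), 1.33-fold apart (95% interval 1.17 to 1.51; log2 fold change 0.41, SE 0.09), and the edgeR adjusted p was 0.0505. With 1 library left out the adjusted p ran from 0.0135 to 0.148 and was under 0.05 in 3 of 14 fits, without TGFB1 replicate 4 or 6 or GFP replicate 5. For the same libraries DESeq2 gave an adjusted p of 0.00556, edgeR with no filter on low counts 0.00230 and edgeR with Xist RNA as a covariate 0.00821. Over all 26 alternative fits, these 3 and the 14 with 1 library left out included, it passed in 8 and not in 18.

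**Figure D3:**
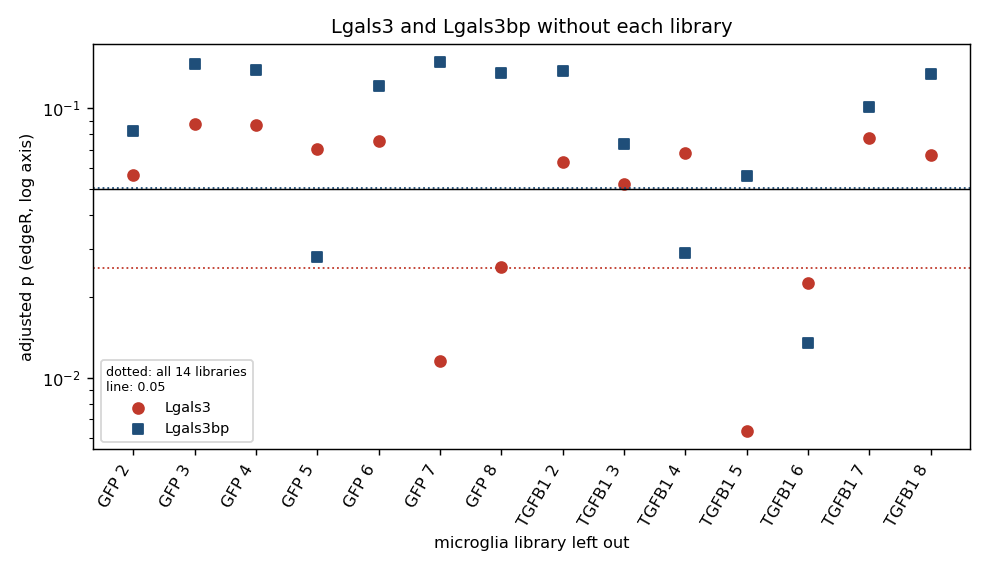
Adjusted p of edgeR (vertical log axis) for Lgals3 and Lgals3bp in microglia, TGFB1 against GFP, when each of the 14 libraries on the horizontal axis is left out; the solid line is 0.05 and the dotted lines are the values with all libraries. Lgals3 lies below the line in 4 of 14 fits and Lgals3bp in 3.

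The other 4 members are given by their range. Lgals9 had 346 to 518 CPM in GFP microglia (mean 457 ± 55.5 SD) and 431 to 618 in TGFB1 microglia (527 ± 56.1 SD, n = 7 each). The groups overlapped, with 3 of 7 TGFB1 libraries above the GFP range, and the log2 fold change of 0.20 (SE 0.07) had an edgeR adjusted p of 0.440. Lgals8 had means of 78.4 ± 9.16 and 84.3 ± 6.25 CPM and a log2 fold change of 0.10 (95% interval -0.07 to 0.28). Lgals1 had means of 33.7 ± 8.81 and 35.2 ± 7.42 CPM and a log2 fold change of 0.05 (-0.27 to 0.38). Lgals4 had means of 6.19 ± 2.43 and 6.05 ± 2.66 CPM and a log2 fold change of -0.03 (-0.67 to 0.61). As ratios of TGFB1 to GFP these intervals ran from 0.951 to 1.21 for Lgals8, from 0.827 to 1.30 for Lgals1 and from 0.628 to 1.53 for Lgals4, whose counts were the lowest.

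Monocytes and border macrophages are other cells that carry galectin-3 and that a microglia sort can hold. Their 10 markers summed to 13.5 to 36.8 CPM in GFP microglia (median 25.9) and 17.9 to 70.9 CPM in TGFB1 microglia (median 37.2), next to microglia marker sums of 39527 to 48954 CPM. Of the 10 markers 7 had a higher mean under TGFB1 and 3 a lower one. F13a1, which encodes a clotting factor subunit made by monocytes and macrophages, had the widest gap, 31 counts over all GFP and 130 over all TGFB1 microglia (means of 2.03 and 8.24 CPM), and 2 TGFB1 libraries lay above the GFP range. Lyve1 had 14 and 36 counts in all, and the mannose receptor gene Mrc1 had 108 and 172. Ccr2 had 130 and 107, Ms4a7 had 77 and 69, and Ly6c2 had 1 and 0. Only Ccr2 and Mrc1 passed the count filter, and neither passed the test (edgeR adjusted p = 0.948 and 0.823). With no filter none of the 10 passed (edgeR adjusted p of 0.632 for F13a1, 0.615 for Lyve1 and 0.537 for Mrc1). The median sum was higher under TGFB1, with overlapping ranges, and the part of these cells in the Lgals3 and Lgals3bp values was not tested. Mueller glia markers summed to 374 to 874 CPM in GFP and 289 to 767 CPM in TGFB1 microglia, and Lgals3 was present at 25.3 to 30.9 CPM in the non-microglia that hold these cells.

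The split of libraries by Xist RNA is not in the labels but divides both treatments alike, and it was added after the counts had been seen. Lgals3 differed by 1.10 on the log2 scale between the 3 GFP and 3 TGFB1 libraries with Xist RNA and by 1.05 between the 4 and 4 without it. With Xist RNA its levels were 10.6 to 23.7 CPM in GFP and 34.7 to 50.3 CPM in TGFB1 microglia. Without Xist RNA they were 11.5 to 15.5 CPM in GFP and 17.4 to 37.6 CPM in TGFB1 microglia. In a joint fit of all 14 microglia libraries Lgals3 passed in neither set (edgeR adjusted p = 0.116 with and 0.115 without Xist RNA). Fits of each set alone are given with the alternatives below. The difference between these effects was 0.05 (95% interval -0.70 to 0.81, edgeR unadjusted p = 0.884).

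For Lgals3bp the effects with and without Xist RNA were farther apart, but their difference did not pass after adjustment. With Xist RNA Lgals3bp had 217 to 242 CPM in GFP and 327 to 387 CPM in TGFB1 microglia (edgeR adjusted p = 0.00155, log2 fold change 0.66 with SE 0.10). Without Xist RNA it had 220 to 264 CPM in GFP and 242 to 290 CPM in TGFB1 microglia (0.20, SE 0.08, edgeR adjusted p = 0.917). The difference between the effects, 0.46 (SE 0.13, 95% interval 0.20 to 0.72), had an unadjusted p of 0.00122 and an edgeR adjusted p of 0.843. No gene passed this test of the difference, and 578 of 10970 had an unadjusted p under 0.05. The test of the effect was passed by 4 of the 10970 genes with Xist RNA and by 6 without it. The 3 TGFB1 libraries with Xist RNA are also those with the lowest rRNA repeat shares, 8.86% to 11.5%, against 15.2% to 16.3% in the other TGFB1 microglia, so these features cannot be told apart among TGFB1 microglia. For Lgals8 the effects were 0.28 with and -0.02 without Xist RNA, and their difference of 0.30 had an interval of -0.03 to 0.64.

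**Figure D4:**
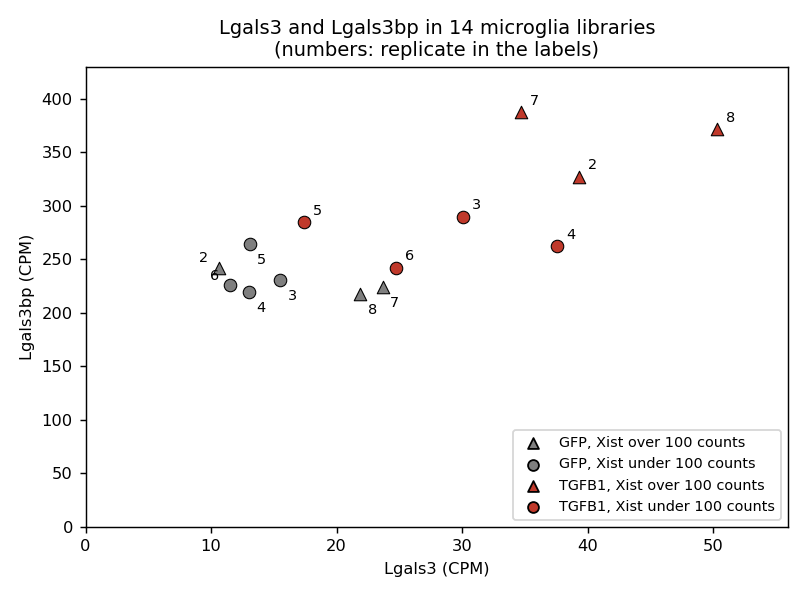
Lgals3bp (vertical axis, CPM) against Lgals3 (horizontal axis, CPM) in the 14 microglia libraries, with the replicate number beside each point, colour for treatment and triangles for libraries with over 100 Xist counts. The 3 TGFB1 triangles have the highest Lgals3bp, 327 to 387 CPM, and in Lgals3bp the GFP triangles lie with the other GFP libraries. In Lgals3 the GFP triangles of replicates 7 and 8, at 23.7 and 21.9 CPM, lie above the other GFP libraries, at 10.6 to 15.5 CPM.

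In non-microglia no member passed the test of TGFB1 against GFP, where 0.39% of 13598 genes did (0.338% higher and 0.0515% lower). No member had an unadjusted p under 0.05 there either, as 7.63% of all genes had, and DESeq2 and limma called none of the 6. Lgals3 had 29.7 and 25.3 CPM in GFP and 29.0 and 30.9 CPM in TGFB1 non-microglia, overlapping groups with a log2 fold change of 0.13 (95% interval -0.31 to 0.57). Lgals3bp had 43.8 and 43.4 CPM in GFP and 48.6 and 50.4 CPM in TGFB1 non-microglia. Its log2 fold change of 0.19 had an interval of -0.17 to 0.54 and an edgeR adjusted p of 0.913. Lgals4, the member with the most RNA per length in GFP non-microglia, had 41.1 and 54.2 CPM in GFP and 38.2 and 42.2 CPM in TGFB1 non-microglia. These groups overlapped, with a log2 fold change of -0.23 (-0.62 to 0.15). Lgals8 (0.06, interval -0.32 to 0.43), Lgals1 (-0.11, -0.90 to 0.68) and Lgals9 (0.06, -0.91 to 1.03) had log2 fold changes near 0 with wide intervals from 2 libraries a group, and leaving out 1 library turned the sign of each.

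The difference between the treatment effects in microglia and in non-microglia was tested in a fit of all 18 libraries. No member passed, and 0.0131% of 15321 genes did (0% higher and 0.0131% lower). For Lgals3 the effect was larger in microglia by 0.95 on the log2 scale (SE 0.41, 95% interval 0.10 to 1.80), with an unadjusted p of 0.0297 and an edgeR adjusted p of 0.99995. A rise of Lgals3 particular to microglia was therefore not shown. For Lgals3bp the difference was 0.23 (-0.19 to 0.65), for Lgals4 0.22 (-0.75 to 1.19), for Lgals1 0.17 (-0.69 to 1.04), for Lgals9 0.15 (-0.60 to 0.91) and for Lgals8 0.06 (-0.32 to 0.44).

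**Figure D5:**
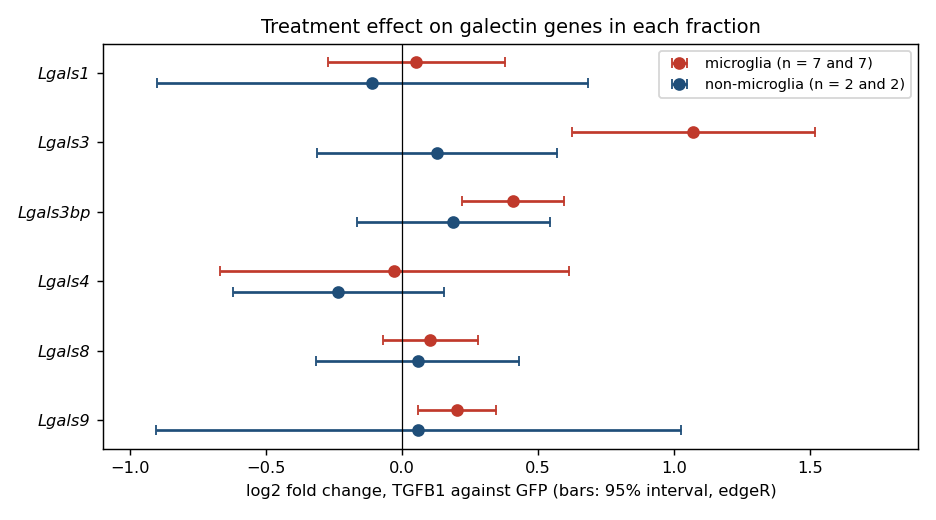
Log2 fold change of TGFB1 against GFP (horizontal axis) for the 6 genes (vertical axis) in microglia and in non-microglia, as points with 95% intervals from edgeR. The microglia intervals of Lgals3 (0.63 to 1.52), Lgals3bp (0.22 to 0.60) and Lgals9 (0.06 to 0.35) lie above 0, before adjustment for the number of genes, and all non-microglia intervals span 0.

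Receptors and glycoproteins to which galectins bind were followed as a list of 27 genes. In microglia 22 were tested and none passed the test of TGFB1 against GFP, where 0.31% of all genes did. Their median log2 fold change was 0.06 against 0.00 over all genes. The smallest p was that of Pdcd1, which encodes the inhibitory receptor PD-1 (164 to 211 CPM, edgeR adjusted p = 0.152, log2 fold change 0.35). In non-microglia 20 were tested and none passed, where 0.39% of all genes did. The growth factor receptor gene Egfr was nearest (85.8 to 61.4 CPM, edgeR adjusted p = 0.215, log2 fold change -0.48). With shares this low, none passing does not set the list apart from all genes. In the test of the difference between the fractions 0 of 25 passed (0.0131% of all genes), Tlr4 having the smallest p (edgeR adjusted p = 0.99995).

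Between the fractions in GFP retinas 18 of 25 partners tested were higher in microglia, 5 lower and 2 did not pass, where 29.9% of all genes were higher and 34.2% lower. The median was 1.24 on the log2 scale against -0.06 over all genes. The list was chosen by hand and includes immune-cell receptors, so this excess cannot be read as a trait of galectin partners. Cd44 stood lower in GFP microglia than in GFP non-microglia (11.1 and 274 CPM), as did Slc3a2 (416 and 1338 CPM) and Bsg (348 and 1131 CPM). Ptprc, the gene of the galectin-1 ligand CD45, stood at 511 CPM in GFP microglia and at 0.147 CPM, 1 count in all, in GFP non-microglia. Havcr2, the gene of TIM-3, stood at 473 and 0.462 CPM, the latter 3 counts. Trem2 stood at 1065 ± 117 CPM (SD, n = 7) in GFP microglia and at 0 counts in both GFP non-microglia libraries, at least 1126-fold higher against a floor of 3 counts per library. Counts in TGFB1 retinas were also 18, 5 and 2, where 30.8% of all genes were higher and 34.4% lower, with a median of 1.57 against -0.04 over all genes. Setting genes at 0 to their floor left both medians unchanged, and it could not have moved them. Only 2 partners in GFP and 1 in TGFB1 non-microglia were at 0, each at least 1025-fold higher in microglia.

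Enzymes and transporters that build or cap N-acetyllactosamine on N-glycans formed another list, of 26 genes. None of 22 tested passed in microglia (0.31% of all genes), with a median log2 fold change of -0.03. None of 23 passed in non-microglia (0.39% of all genes), with a median of 0.00. Here too, none passing does not set the list apart from all genes. St6gal1, whose product caps galactose with sialic acid, had the smallest p in microglia (58.6 to 43.4 CPM, edgeR adjusted p = 0.141, log2 fold change -0.44). St3gal3, another sialyltransferase gene, had the smallest in non-microglia (20.3 to 32.9 CPM, edgeR adjusted p = 0.301, log2 fold change 0.71). In the test of the difference between the fractions 0 of 25 passed (0.0131% of all genes), St6gal1 again having the smallest p (edgeR adjusted p = 0.986). Between the fractions in GFP retinas 11 of 25 were higher in microglia, 5 lower and 9 did not pass, with a median of 0.31 against -0.06 over all genes. The share that passed in either direction was near the 64.2% of all genes (29.9% higher and 34.2% lower). Gcnt1, a gene for O-glycan branching, stood at 143 and 0.630 CPM in GFP microglia and non-microglia. Mgat4a, a gene for N-glycan branching, stood at 215 and 14.3 CPM, and B4galt1, which adds the galactose that galectins bind, at 340 and 21.8 CPM. In TGFB1 retinas 10 were higher, 6 lower and 9 did not pass, where 65.2% of all genes passed (30.8% higher and 34.4% lower), with a median of 0.51 against -0.04 over all genes.

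The genes whose levels most resembled each member were sought over the 14 microglia libraries, by Pearson correlation of log2 CPM among protein-coding genes with a mean of at least 20 CPM. These libraries share the treatment groups, the Xist split and their depths, so the values describe only this set. Each search covered 6252 genes, or 6253 for Lgals4, so the genes named have the highest of many values. The 95th percentile of r over the genes compared ran from 0.47 for Lgals1 and Lgals8 to 0.57 for Lgals4. Whether values this high arise by chance among so many genes was not tested. For Lgals3 the genes with the highest r were Cd84, Mbnl2 and the actin-capping gene Capg, with r of 0.92, 0.90 and 0.89. For Lgals3bp they were the proton pump gene Atp6v1h, Gnpda1 and the integrin gene Itgax (0.84, 0.84 and 0.81). For Lgals9 they were the actin-bundling gene Lcp1, Rtcb and Anxa3 (0.88, 0.86 and 0.85). For Lgals1 they were Lactb2, Ddx20 and Tnfaip1 (0.84, 0.83 and 0.80), for Lgals8 Depdc7, Lamtor3 and Yars (0.84, 0.81 and 0.80), and for Lgals4 the catalase gene Cat, Shmt1 and Crcp (0.90, 0.90 and 0.89). Lgals4 rests on 3 to 24 counts in these libraries, and replicate 2 of each treatment stood at the floor of 3 counts. The part of the replicate 2 libraries in its r was not tested. After removal of the group means the values for Lgals3 and Lgals3bp were lower. They were 0.79, 0.81 and 0.71 for Cd84, Mbnl2 and Capg with Lgals3 and 0.69, 0.63 and 0.57 for Atp6v1h, Gnpda1 and Itgax with Lgals3bp. Values for Lgals9 were also lower, those for Lgals4 were slightly higher, and those for Lgals1 and Lgals8 moved in both directions. Lgals3 and Lgals3bp had an r of 0.69 with each other, the highest of the 15 pairs of members, and the lowest was that of Lgals3bp with Lgals4, at -0.03.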

How the data were processed

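PolyA RNA of 18 libraries was sequenced after a modified Smart-Seq2 preparation. The authors deposited raw counts per Ensembl gene, not normalized. Per the submitters' processing notes the tools were STAR, featureCounts and DESeq2 and the build GRCm38.p6; their versions, the annotation release and the strand setting were not given in the sources used here. Of 54532 genes 54409 were matched to a gene symbol, and GENCODE M21 (GRCm38) gave positions and exon lengths. Reads without molecular identifiers were counted, so floors cover counting error only. Whether the libraries of a group are separate animals is not in the labels; a p-value here reflects the spread of these libraries, which may be technical. No 2 libraries were near copies of each other (highest r of log2 CPM 0.975).

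Groups come from the sample titles. TMM scaling, the filterByExpr filter and a robust quasi-likelihood fit were run in edgeR 4.0.16 (R 4.3.3), with Benjamini-Hochberg adjustment over all genes tested and calls at an adjusted p under 0.05. TGFB1 was compared with GFP within each fraction, and the 3 other comparisons came from a fit of all libraries. All 6 members passed the count filter in each of the 5 comparisons. Intervals are 95% and use the fit's degrees of freedom. CPM are scaled by the TMM factors of the fit of all libraries, and exon overlaps come from bedtools 2.31.1. The models were tested on simulated counts. Members and lists were chosen with earlier results of these data known. Named are all 6 members. Of each list and comparison up to 3 called genes with the smallest p are named, or the 1 nearest where none passed. For likeness the 3 genes with the highest correlation are named. Cd44, Slc3a2 and Bsg were added as partners with lower levels in GFP microglia. Alternatives were other size factors (RLE), no count filter, no robust dispersion, DESeq2 1.42.0, limma 3.58.1 (voom, quality weights), the replicate number as a block, the fit of all libraries, covariates for Xist RNA and for replicates 2 to 4, leaving out 3 rRNA repeat genes, and leaving out each library; the Xist subsets were added after the data were seen. The replicate numbers were not taken to pair samples.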

Additional observations from a re-analysis of the deposited data

How the results depend on the processing

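In microglia 1 galectin was called higher, and 0 to 2 were with 1 library left out. The count was 2 with no filter on low counts, with the replicate block and with the Xist covariate, where Lgals3bp joined Lgals3 (adjusted p of Lgals3bp 0.00230, 0.0404 and 0.00821). It was 0 with limma voom (Lgals3 adjusted p 0.0754) and in the libraries without Xist RNA alone (Lgals3 adjusted p 0.171); in those with Xist RNA alone Lgals3bp was called (0.00327) and Lgals3 was not (0.0980). DESeq2 called Lgals3bp and gave no adjusted p for Lgals3 (log2 fold change 1.08, unadjusted p 2.09e-06). Of 2 galectins called lower in GFP microglia than in GFP non-microglia, Lgals4 alone remained with the replicate block (1, Lgals3 adjusted p 0.0660) and 1 to 2 with a library left out. The other counts of called galectins did not move. The labels do not say what a replicate number marks. Same-numbered microglia libraries matched in presence of Xist RNA in 7 of 7 pairs, but their deviations were correlated at only -0.12 to 0.22 and 2 of 7 resembled their own number best, so the pairing is not established and the block was kept as an alternative.

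Signs turned only for members near 0. In non-microglia Lgals9 went to -0.13 with voom and -0.054 with the replicate block. In microglia without Xist RNA Lgals1 went to -0.17 and Lgals8 to -0.025, and with Xist RNA Lgals4 went to 0.11. With 1 library left out the ranges were, in microglia, -0.035 to 0.13 for Lgals1 and -0.17 to 0.12 for Lgals4; in non-microglia, -0.38 to 0.26 for Lgals1, -0.014 to 0.13 for Lgals8 and -0.93 to 0.64 for Lgals9; and for the difference of effects, -0.21 to 0.46 for Lgals1, -0.0052 to 0.12 for Lgals8 and -0.43 to 1.14 for Lgals9. Leaving out a non-microglia library leaves 1 in its group, which is assumed to vary like the others. The causes were not tested.

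Over all genes, the 26 called higher and 8 lower in microglia became 39 and 25 with no filter, 41 and 19 with the block, 40 and 16 with the Xist covariate, 32 and 13 with DESeq2, 11 and 4 in the fit of all libraries, 17 and 2 with Xist RNA, 1 and 2 without, and 10 to 26 and 5 to 14 with a library left out. The 46 and 7 in non-microglia became 86 and 16 with no filter, 89 and 20 with the block, 29 and 4 with DESeq2, 4 and 0 in the fit of all libraries, and 22 to 87 and 6 to 33 with a library left out. The 5245 called lower in GFP microglia became 3446 with the block. For the difference of effects, 0 higher and 2 lower became 3 and 9 with no filter. No rank by level per length moved with unshared exon length or raw totals. These alternatives could hardly move a rank, since raw totals rescale all genes of a library alike and only Lgals8 has shared exon bases (4.20%). Other measures of exon length, such as that of single transcripts, were not tried. Depth limits Lgals4 in microglia (3 to 24 counts) and Lgals9 in non-microglia (11 to 33 counts).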

Other observations

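The table holds 7 further galectin-related genes and pseudogenes, matched by symbol. Lgalsl, which encodes a galectin-like protein, had 247 to 293 counts in the GFP and 223 to 290 in the TGFB1 non-microglia libraries and 2 to 19 in any microglia library. Lgals12, known from fat cells, had 14 to 26 counts in each non-microglia library and 2 counts over all 14 microglia libraries. Lgals2 and Grifin, the latter a lens galectin gene, had 3 counts each over both GFP non-microglia libraries and 3 each over both TGFB1 ones, and over the 14 microglia libraries 1 and 2 counts. Lgals7 and Lgals1-ps2 had 0 counts in all 18 libraries, and Lgals1-ps1 had 1.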
